A study of Mus musculus with 100 samples.

Results

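The respiratory chain of mouse mitochondria was followed through 101 of the 25965 genes in the expression table. They comprise all 13 rows on the mitochondrial chromosome and 88 autosomal rows whose symbol begins with Nduf, Uqcr, Cox4 to Cox8 or Atp5 or is Sdha, Sdhb, Sdhc or Sdhd. Of the 88 nuclear rows, 80 encode subunits, with 34 in complex I, 4 in complex II, 8 in complex III, 19 in complex IV and 15 in complex V. The other 8 were caught by their names, namely the complex I assembly factors Ndufaf1 to Ndufaf4, the rows Atp5s, Atp5sl and Cox4nb, and the pseudogene row Atp5l-ps1. The 13 mitochondrial rows are the mRNAs for 7 subunits of complex I, cytochrome b of complex III, 3 core subunits of complex IV and 2 subunits of complex V. The mitochondrial ribosomal RNAs were not analysed here.

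Oxidative phosphorylation passes electrons from NADH and succinate through complexes I to IV to oxygen, and complex V makes ATP from the proton gradient. Complex II is built from nuclear genes only, whereas the other complexes join nuclear subunits to a few hydrophobic subunits encoded by mitochondrial DNA, which is inherited from the mother. Several complex IV subunits exist as paralogs with a general form and a form known from muscle or testis, and pluripotent cells are known for a high use of glycolysis.

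The study asked how the sex of the donor cell and the culture medium bear on imprinting errors in hybrid iPSCs, and sequenced RNA from 6 groups of 3 replicates. Female mouse embryonic fibroblasts (MEFs) came from a mid-gestation embryo of an i4F-BL6 mother, which carries a doxycycline-inducible cassette of the Yamanaka factors and the rtTA gene in Rosa26, and a CAST father. The induced pluripotent lines F KSR2, F KSR4 (female), M KSR3 and M KSR5 (male) were single colonies picked after doxycycline from MEFs of such embryos, and were kept without doxycycline on feeder cells in knockout serum replacement with LIF (KSR-iPSCs). The female TX1072 embryonic stem cells, of a BL6 by CAST cross, were kept in serum medium with LIF and inhibitors of MEK and GSK3 (TX 2i ESCs). Each line was 1 clone, the MEF group was female only and from 1 embryo, and medium and genotype cannot be told apart between KSR-iPSCs and TX 2i ESCs. The study calls the replicates biological, without saying how the cultures were separated, so the p-values measure the spread between these cultures.

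Gene reads numbered 13183036 to 17921280 per library. Fibroblast and pluripotency markers followed the labels. The 14 fibroblast markers summed to 36400 to 48400 RPM (reads scaled to the library total) in MEFs and 640 to 2210 elsewhere, and the 8 pluripotency markers to 1.52 to 2.51 in MEFs and 4260 to 8490 elsewhere. Fibroblasts also express some of the 7 primitive endoderm markers (Gata4, Gata6, Sox17, Sox7, Dab2, Pdgfra and Foxa2). These summed to 229 to 262 in M KSR3 and 31.9 to 101 in the other KSR-iPSC lines. In the same unit, the sums were 14.6 to 28.9 in TX 2i ESCs and 202 to 313 in MEFs. Values below are log2 RPM (reads scaled to the library total), in which a gene's length is not taken into account. A gene was called at an adjusted p under 0.05 in a limma fit over all genes tested. In such bulk RNA, fewer cells of a type and less RNA per cell cannot be told apart. F KSR4 replicate 3 stood apart from its group for most respiratory chain genes, as described below, and F KSR4 replicate 2 and M KSR5 replicate 3 had been noted as apart in earlier results of these data.

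Most nuclear respiratory chain genes were higher in the pluripotent groups than in MEFs. Of the 85 nuclear members tested, 61 were called higher and 1 lower, where 42.1% of all 14632 genes tested were called higher and 32.5% lower. The median log2 difference was 0.59 over the nuclear members and 0.21 over all genes. All 15 pluripotent libraries lay above all 3 MEF libraries for 32 nuclear members, with 25.9% of all genes in that state, and below them for 0, with 23.9% of all genes. The changes were modest in size, and 16 of the 85 were called with at least a 2-fold increase, a class that held 29.1% of all genes. These counts include Cox7a1, Cox7b2 and Cox8c, which were above the level needed for testing in pluripotent libraries only. Without MEF replicate 2, the MEF library in which 76 of the 85 genes were lowest, the count called higher fell to 42. Of all genes, 40.1% were called higher in that setting. Scaling by the median of gene ratios in place of the total moved the median of all genes to 0.03 and that of the nuclear members to 0.41. With it 45 members were called higher and 1 lower, where 37.7% of all genes were called higher. The count called higher was 60 without F KSR4 replicate 3 (42.8% of all genes). It was 61 without F KSR4 replicate 2 and M KSR5 replicate 3 (44% of all genes).

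**Figure D1:**
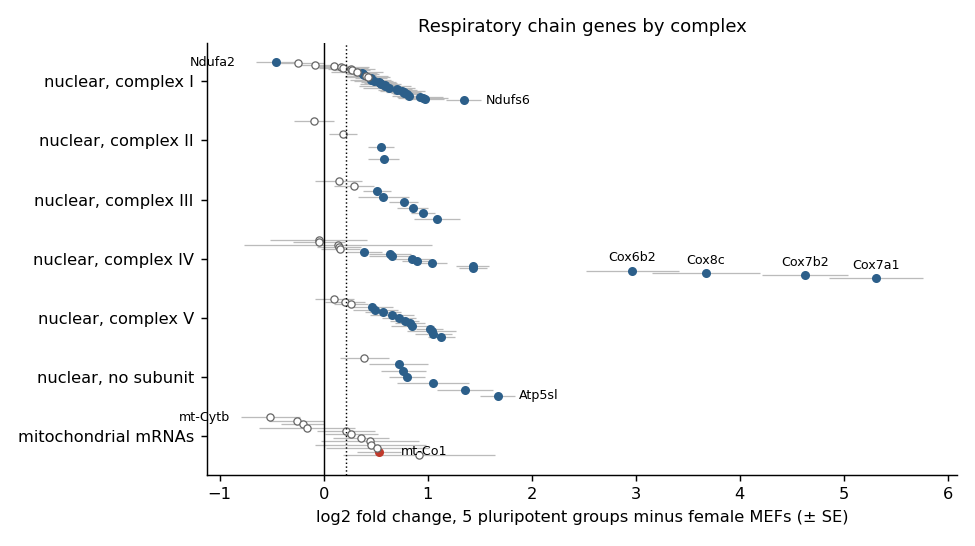
Log2 fold change of each tested member between the 5 pluripotent groups and female MEFs (horizontal axis, bars are SE), arranged by complex and genome. Most nuclear genes lie right of 0, the largest increases are in complex IV, and the mitochondrial mRNAs lie on both sides of 0.

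By complex, 23 of 34 nuclear complex I subunits were higher and 1 was lower, with a median difference of 0.50. Complex II had 2 of 4 higher (median 0.37) and complex III 6 of 8 (0.67). Complex IV had 12 of 17 higher (0.85) and complex V 12 of 15 (0.72). Each of these had 0 lower, also at an unadjusted p under 0.05. Of all genes tested, 42.1% were called higher and 32.5% lower. The complex IV values include Cox7a1, Cox7b2 and Cox8c. The genes of complexes I, III and V described next were singled out after their values were seen. Among complex I subunits, the accessory subunit Ndufs6 read 4.53, 4.31 and 4.80 in MEFs and 5.61 to 6.78 in the 15 pluripotent libraries, with no overlap (log2 fold change 1.35, SE 0.17, adjusted p = 1.40e-06). The single lower gene, Ndufa2, another accessory subunit, read 5.30, 5.14 and 5.59 in MEFs and 4.52 to 5.37 elsewhere, so that the groups overlapped (log2 fold change −0.46, adjusted p = 0.0340).

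In complex III, Uqcrc1, a core subunit, rose from 7.57, 7.18 and 7.31 in MEFs to 8.03 to 8.49 (log2 fold change 0.95, adjusted p = 1.35e-06). Uqcr10, a small subunit, rose by a log2 fold change of 1.09. In complex V, the catalytic-head subunits Atp5a1 and Atp5b took the most reads of all nuclear members. Atp5b measured 9.93, 9.78 and 9.93 in MEFs and 10.59 to 11.11 in the pluripotent libraries (log2 fold change 1.02, SE 0.13, adjusted p = 1.81e-06). Atp5a1 measured 9.44, 9.06 and 9.14 in MEFs and 10.11 to 10.56 elsewhere (log2 fold change 1.13, adjusted p = 5.17e-07). For both ATP synthase genes the 15 libraries lay clear of the MEFs and spanned a narrow range.

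Complex II, succinate dehydrogenase, changed less evenly. Sdha, the flavoprotein that oxidises succinate, read 7.71, 7.31 and 7.36 in MEFs and 7.57 to 8.23 elsewhere (log2 fold change 0.55, adjusted p = 0.000711). The membrane anchor Sdhd read 6.35, 6.27 and 6.53 in MEFs against 6.60 to 7.44, with no overlap (0.58, adjusted p = 0.00222). The other anchor, Sdhc, gave 0.18 (adjusted p = 0.227). Sdhb, the iron-sulfur subunit, gave −0.09 (adjusted p = 0.682) over the 5 groups, although F KSR2 stood below every other group for it, at 4.83, 5.17 and 5.52 against 5.87 to 6.84 in all other libraries.

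Group by group against the same 3 MEF libraries, which the 5 comparisons share, the nuclear members called higher numbered 37 for F KSR2 (38% of all genes tested), 46 for F KSR4 (34.6%), 51 for M KSR3 (39.4%), 44 for M KSR5 (39%) and 49 for TX 2i ESCs (37.5%), of 85 in each. Those called lower were 2 in F KSR2 (29% of all genes), Ndufa2 (−0.65) and Sdhb (−0.93, adjusted p = 0.00331 by limma), and 0 in the other 4 groups, where 31.2% (F KSR4), 28.2% (M KSR3), 28.9% (M KSR5) and 29% (TX 2i ESCs) of all genes were called lower. At an unadjusted p under 0.05, limma and limma-voom each gave 1 lower in F KSR4 and 0 in M KSR3, M KSR5 and TX 2i ESCs.

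The largest increases among all members fell on complex IV genes that have a more widely used paralog. Cox7a1, the form known from heart and skeletal muscle, had 6, 1 and 2 reads in the MEF libraries and 42 to 129 reads in the pluripotent ones. Its log2 values were 2.13, 2.32 and 2.44 for F KSR2, 1.75, 2.83 and 2.91 for F KSR4, 2.56, 2.09 and 2.66 in M KSR3, 2.59, 1.75 and 2.46 in M KSR5 and 1.24, 2.40 and 2.63 in TX 2i ESCs. No pluripotent library approached the MEFs (log2 fold change 5.31, SE 0.45, adjusted p = 9.67e-09). Genes were tested if above 0 in 3 or more libraries, and Cox7a1 was above 0 in pluripotent libraries only. The p-value of Cox7a1 is thus given as a description. Cox7a2, its general counterpart, read 5.63, 5.36 and 5.81 in MEFs and 5.64 to 6.84 elsewhere, a smaller rise with overlap (0.64, adjusted p = 0.00885) that was lost without MEF replicate 2 (adjusted p = 0.0681). Cox7a2l, a relative that takes part in joining complexes III and IV, gave 0.15 (adjusted p = 0.538). Cox7a1 thus made up 0.136% of the reads of the 3 genes in MEFs and 2.86% to 3.39% by group in the pluripotent cells, with the fewest reads of the 3 genes in every group. Of 8 skeletal muscle markers 3 were tested, and Myh3 (3.4) and Tnnc2 (2.84) were higher in the pluripotent groups and Acta1 was lower (−5.53). The 8 summed to 21.8 to 47.2 RPM in MEFs, most of it Acta1, and to 5.77 to 13 in the pluripotent libraries, and their part in the result was not tested.

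Cox6b2, the testis form of the subunit that joins complex IV monomers, had 42, 39 and 87 reads in MEFs, or log2 values of 1.36, 0.99 and 2.19. It read 4.84, 4.61 and 4.74 for F KSR2, 3.79, 6.19 and 6.37 for F KSR4, 3.28, 2.96 and 3.25 for M KSR3, 4.15, 3.20 and 5.24 for M KSR5 and 4.25, 5.53 and 4.79 for TX 2i ESCs. All 15 lay above the MEFs (log2 fold change 2.97, SE 0.45, adjusted p = 1.17e-05), M KSR3 lowest and F KSR4 with the widest spread. The general form Cox6b1 gave −0.04 (adjusted p = 0.880). Of the reads of the pair, Cox6b2 held 2.84% in MEFs, 8.47% for M KSR3, 18.8% for M KSR5, 20.8% for TX 2i ESCs, 24.6% for F KSR2 and 28.5% for F KSR4.

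Cox7b2 and Cox8c, further complex IV forms known from testis, had 0 reads in all 3 MEF libraries. Cox7b2 had 37, 20 and 30 reads for F KSR2, 67, 41 and 60 for F KSR4, 5, 11 and 14 for M KSR3, 24, 9 and 8 for M KSR5 and 17, 44 and 25 for TX 2i ESCs. Set against the 3 reads that a count of 0 over the MEF group allows, its mean of 1.59 RPM was at least 29.1-fold higher. Cox8c had 5, 21 and 31 reads for F KSR2, 22, 15 and 13 for F KSR4, 18, 24 and 18 for M KSR3, 30, 22 and 12 for M KSR5 and 1, 5 and 1 for TX 2i ESCs. Its mean of 0.897 RPM over the 5 groups was at least 16.5-fold higher than that limit. Against MEFs it was called in each KSR-iPSC line and not in TX 2i ESCs (log2 fold change 1.00, adjusted p = 0.198). Cox7b2 and Cox8c were above 0 in no MEF library, and so were tested through the side where they were high. Their calls against MEFs are given as a description. Cox8c made up 0.307% to 0.675% of the Cox8 reads in the KSR-iPSC lines and 0.0759% in TX 2i ESCs. The general form Cox8a rose by 0.66 (adjusted p = 0.0124), a call lost without MEF replicate 2 (adjusted p = 0.0740) and by median-of-ratios scaling (0.0662). Such intervals and limits cover counting error only. Cyct, the testis form of the electron carrier cytochrome c and outside the 101 genes, likewise went from 0 reads in MEFs to 165 to 473 reads, at least 346-fold higher, and held 13.7% (TX 2i ESCs) to 28.6% (F KSR2) of the reads of Cycs and Cyct. The 4 germ cell markers (Ddx4, Dazl, Sycp3 and Stra8) were also higher in the pluripotent libraries than in MEFs. They summed to 0.288 to 0.596 RPM in MEFs, where 3 of the 4 had at most 3 reads in every library. In the pluripotent libraries they summed to 78.9 to 309 RPM. Among the pluripotent groups this sum did not follow each of these genes. M KSR3 had the highest sums (269 to 309 RPM) but the lowest Cox7b2, at 5, 11 and 14 reads. TX 2i ESCs had the lowest sum (78.9 to 208 RPM over the libraries) and the fewest Cox8c reads, at 1, 5 and 1. The part of the germ cell markers in the result was not tested.

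**Figure D2:**
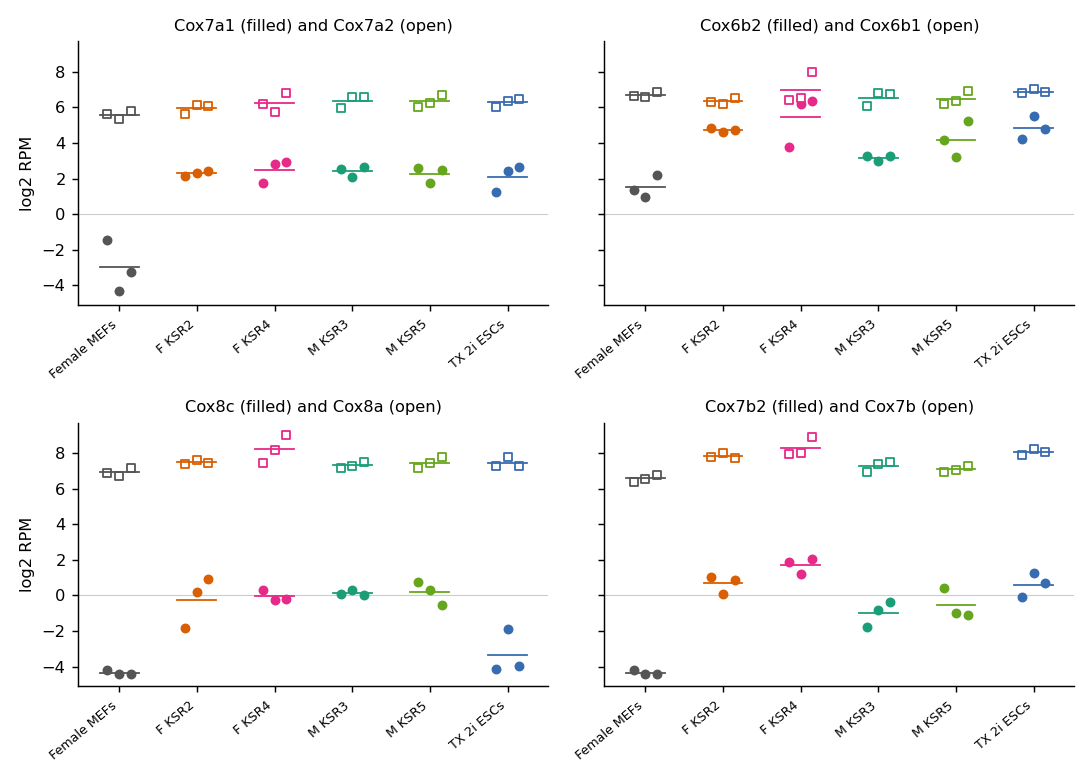
Log2 RPM of paralog pairs in each of the 18 libraries by group, with the restricted form filled, the general form open and lines at the group means, not scaled to gene length. Cox7b2 and Cox8c sit at the value of 0 reads in female MEFs, and Cox7a1 and Cox6b2 are lower there than in every pluripotent library.

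Not every restricted form took part. Cox8b and Cox6a2, both known from striated muscle, had at most 1 and 9 reads in any library and were not tested. Cox4i2, a form known from lung, gave −0.05 (adjusted p = 0.929), while its general partner Cox4i1 rose by 0.90. Ndufa4l2, a hypoxia-responsive relative of the complex IV subunit Ndufa4, spread widely between replicates, at 2.20, 1.64 and 2.00 in MEFs and, for example, 2.03, −2.70 and 2.22 in M KSR3 (log2 fold change 0.14, adjusted p = 0.895). Ndufa4 itself gave 0.39 (adjusted p = 0.0477), a call that most alternatives lost, and Cox6a1, the partner of Cox6a2, gave 0.16 and was not called. The 3 genes that encode the identical c subunit of complex V all rose, Atp5g1 by 1.04, Atp5g2 by 1.06 and Atp5g3 by 0.85. Atp5g3 kept the most reads of the 3 in every group, with 61% in MEFs and 54.9% to 60.5% in the pluripotent groups.

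Among the other complex IV subunits, Cox5a, which binds next to the catalytic core of complex IV, and Cox7c, a small structural subunit, were singled out after their values were seen. Cox5a read 6.64, 6.51 and 6.87 in MEFs and 7.72 to 8.56 elsewhere (log2 fold change 1.44, SE 0.13, adjusted p = 2.83e-08). Cox7c read 5.43, 5.52 and 5.90 in MEFs and 6.68 to 7.79 elsewhere (log2 fold change 1.43, adjusted p = 2.36e-07). Both lay clear of the MEFs in all 15 libraries. Atp5sl, a protein named for its likeness to an ATP synthase factor, rose from 3.47, 3.18 and 3.56 to 4.49 to 5.67 (log2 fold change 1.67, adjusted p = 9.89e-08).

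The sequences upstream of 5 complex IV genes are shown because restricted and general forms moved differently. RefSeq promoter windows, from 250 bases before to 50 bases after the start in GRCm38.p6, matched 71 of the 88 nuclear members and 17921 of all 25965 genes. Below are the 250 bases before the start, 5′ to 3′ on the gene's strand, with CG pairs in capitals. They lie at chr7:30183921-30184170 (plus strand) for Cox7a1, chr9:79759854-79760103 (minus) for Cox7a2, chr7:4753095-4753344 (minus) for Cox6b2, chr7:30626115-30626364 (minus) for Cox6b1 and chr5:71548206-71548455 (minus) for Cox7b2.
Cox7a1: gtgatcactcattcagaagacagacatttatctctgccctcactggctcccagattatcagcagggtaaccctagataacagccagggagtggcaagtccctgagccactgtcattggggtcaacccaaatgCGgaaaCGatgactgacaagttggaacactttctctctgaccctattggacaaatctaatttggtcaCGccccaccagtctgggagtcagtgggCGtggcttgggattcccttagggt
Cox7a2: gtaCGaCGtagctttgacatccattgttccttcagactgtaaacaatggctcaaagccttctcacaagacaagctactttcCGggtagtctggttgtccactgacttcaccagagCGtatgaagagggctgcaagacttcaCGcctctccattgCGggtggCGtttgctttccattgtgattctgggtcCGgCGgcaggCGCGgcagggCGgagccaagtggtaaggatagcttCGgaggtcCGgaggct
Cox6b2: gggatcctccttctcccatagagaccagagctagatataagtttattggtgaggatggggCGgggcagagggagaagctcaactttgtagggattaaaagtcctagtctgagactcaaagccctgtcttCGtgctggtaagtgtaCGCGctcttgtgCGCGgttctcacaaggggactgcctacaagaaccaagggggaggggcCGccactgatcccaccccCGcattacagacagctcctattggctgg
Cox6b1: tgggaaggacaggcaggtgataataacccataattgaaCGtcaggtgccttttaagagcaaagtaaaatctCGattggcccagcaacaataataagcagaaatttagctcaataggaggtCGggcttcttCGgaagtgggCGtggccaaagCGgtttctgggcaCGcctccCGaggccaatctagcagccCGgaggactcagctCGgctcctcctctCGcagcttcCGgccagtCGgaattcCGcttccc
Cox7b2: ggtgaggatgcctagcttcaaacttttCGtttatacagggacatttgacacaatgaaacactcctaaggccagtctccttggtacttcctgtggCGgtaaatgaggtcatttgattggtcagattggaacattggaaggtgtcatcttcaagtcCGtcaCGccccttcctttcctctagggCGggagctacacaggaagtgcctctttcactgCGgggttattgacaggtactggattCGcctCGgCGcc
The printed stretches hold 4 CG pairs for Cox7a1 and 14 for Cox7a2, 8 for Cox6b2 and 14 for Cox6b1, and 9 for Cox7b2. Over the full 300-base windows Cox7a1 had 7 CG pairs, Cox6b2 and Cox7b2 10 each, Cox6b1 17 and Cox7a2 20, while the median was 19 (quartiles 15 and 25) over the nuclear members and 13 (4 and 24) over all genes. The members as a whole held the binding motif of NRF1 (GCGCATGC, both strands), a factor known to act on respiratory chain genes, in 15.5% of windows against 3.60% of all. They held the ETS family motif (CCGGAAG, both strands) in 22.5% against 12.0% and a TATAAA box in 9.86% against 12.9%. These motif counts are descriptions of the windows.

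Few mitochondrial mRNAs were called against MEFs. Of the 12 tested, 1 was called higher and 0 lower, where 42.1% of all genes tested were called higher and 32.5% lower. The median difference was 0.31. Over the 6 heavily read mRNAs (mt-Nd1, mt-Nd2, mt-Co1, mt-Nd4, mt-Nd5 and mt-Cytb) the median was 0.03. The count of 0 lower held at an unadjusted p under 0.05 and by limma-voom. The called gene was mt-Co1, the catalytic core of complex IV. It measured 12.38, 12.58 and 12.62 in MEFs, 12.55, 12.77 and 12.51 for F KSR2, 13.10, 14.07 and 13.74 for F KSR4, 12.87, 13.15 and 13.33 for M KSR3, 13.13, 12.92 and 13.37 for M KSR5 and 12.80, 12.94 and 12.63 for TX 2i ESCs. F KSR2 and TX 2i ESCs were close to the MEFs and F KSR4 was highest (log2 fold change 0.53, SE 0.21, adjusted p = 0.0310). The call was lost with no filter on low genes (adjusted p = 0.0777), by median-of-ratios scaling (0.157) and without MEF replicate 1 (0.0668).

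mt-Cytb, cytochrome b of complex III, pointed the other way. It measured 11.09, 11.34 and 11.55 in MEFs, 10.57, 10.47 and 10.47 for F KSR2, 11.14, 10.49 and 12.04 for F KSR4, 10.77, 11.02 and 11.18 for M KSR3, 10.74, 11.34 and 11.43 for M KSR5 and 10.79, 9.27 and 10.46 for TX 2i ESCs (log2 fold change −0.51, SE 0.29, adjusted p = 0.112). Without F KSR4 replicate 3, its highest library, it was called lower (−0.595, adjusted p = 0.0401), and likewise with median-of-ratios scaling (−0.69, adjusted p = 0.0319). The complex I mRNAs gave 0.36 for mt-Nd1 (adjusted p = 0.238), 0.27 for mt-Nd2 (0.349), −0.26 for mt-Nd4 (0.387), −0.20 for mt-Nd5 (0.376) and 0.21 for mt-Nd6 (0.504).

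Group by group against MEFs, 2 of the 12 mitochondrial mRNAs were called higher in F KSR4, where 34.6% of all genes were, namely mt-Co1 (1.11, adjusted p = 0.00186) and mt-Co3 (2.06, adjusted p = 0.0143). In TX 2i ESCs 3 of 12 were called lower, where 29% of all genes were, namely mt-Cytb (−1.16, adjusted p = 0.0106), mt-Nd4 (−0.93, adjusted p = 0.0240) and mt-Nd5 (−0.62, adjusted p = 0.0477). The other 3 groups had 0 called in either direction by limma, with 2 lower in F KSR2 and 1 higher in each of M KSR3 and M KSR5 at an unadjusted p under 0.05. By limma-voom these were called, 2 lower in F KSR2 and 1 higher in each of M KSR3 and M KSR5. The F KSR4 value of mt-Co3 rests on few reads, as set out below.

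Within each library the median of the 78 nuclear subunit genes, taken from the MEF mean, exceeded that of the 6 heavily read mitochondrial mRNAs in 14 of 15 pluripotent libraries, by 0.56 ± 0.37 (SD, n = 15). The exception was F KSR4 replicate 3, with 1.21 for the nuclear genes and 1.23 for the mitochondrial ones. The median over all genes tested, taken likewise, was −0.10 in F KSR4 replicate 2 and 0.12 to 0.32 in the other pluripotent libraries. It too exceeded the mitochondrial median, except in F KSR4 replicates 2 and 3, M KSR3 replicate 3 and M KSR5 replicate 2. The nuclear median lay above that of all genes in every pluripotent library. The mitochondrial mRNAs took 1.22%, 1.52% and 1.63% of gene reads in MEFs, 1.54%, 1.46% and 1.21% for F KSR2, 1.84%, 2.88% and 3.38% for F KSR4, 1.69%, 1.90% and 2.13% for M KSR3, 1.70%, 1.85% and 2.05% for M KSR5, and 1.57%, 1.27% and 1.26% for TX 2i ESCs. The nuclear members took 0.661% to 0.800% in MEFs and 1.10% to 1.78% elsewhere, with no overlap. The mitochondrial share of F KSR2 and TX 2i ESCs overlapped that of MEFs, whereas all 9 libraries of F KSR4, M KSR3 and M KSR5 lay above it.

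**Figure D3:**
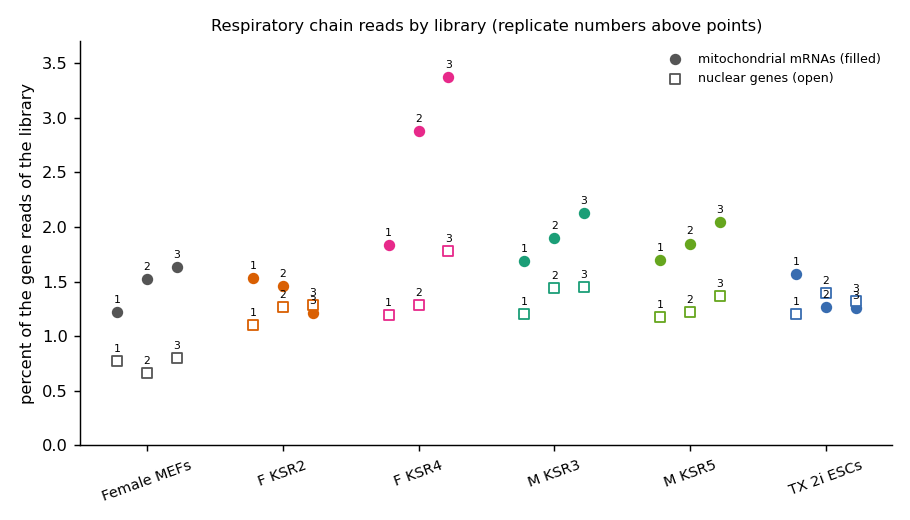
Percent of each library's gene reads on the 13 mitochondrial mRNAs and on the 88 nuclear members (vertical axis), by group, with 1 point per library and replicate numbers above the points. Nuclear members sit at 0.661% to 0.800% in MEFs and 1.10% or more elsewhere, and the highest mitochondrial shares, 2.88% and 3.38%, are F KSR4 replicates 2 and 3.

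mt-Co1 alone held 42.2% to 47.2% of mitochondrial reads in MEFs and up to 72.4% in F KSR4 replicate 2 and 69.8% in TX 2i ESCs replicate 2. In F KSR4 replicate 2, mt-Co1 stood at 14.07, the highest of all 18 libraries, while mt-Cytb at 10.49 and mt-Nd4 at 9.79 were the lowest of the group.

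The 13 mitochondrial mRNAs differed widely in level once length was taken into account. In RPKM, that is RPM per kilobase of the gene, the medians over 18 libraries were 4931 for mt-Co1, 1771 for mt-Nd1, 1680 for mt-Cytb, 1121 for mt-Nd2, 705.9 for mt-Nd4 and 563.9 for mt-Nd5, and these 6 held 99.7% to 99.9% of all mitochondrial reads. mt-Nd6, the only one of the 13 encoded on the other strand, had 31.5 RPKM. The remaining 6 were at 7.17 (mt-Nd3), 5.47 (mt-Co2), 3.52 (mt-Atp8), 2.92 (mt-Atp6), 2.82 (mt-Co3) and 0.600 (mt-Nd4l) RPKM, with medians of 3 to 70 reads per library. Some neighbours share bases, 43 between mt-Atp8 and mt-Atp6 and 7 between mt-Nd4l and mt-Nd4 on the same strand, so that a read there could be counted for either gene.

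The mitochondrial genes with few reads were those whose sequence recurs without change in the nuclear genome of GRCm38. The largest copy holds bases 6390 to 11042 of the mitochondrial chromosome at chr1:24611535-24616188 on the minus strand, with 99.94% identity and 2 mismatches, A6393T in mt-Co1 and T9461C in mt-Nd3 (mitochondrial base first, positions on the mitochondrial chromosome). Every 50-base window of mt-Co2, mt-Atp8, mt-Atp6, mt-Co3 and mt-Nd4l has an identical nuclear copy, as have 99.0% of those of mt-Nd3, 62.2% of mt-Nd4, 51.1% of mt-Co1, 8.29% of mt-Nd2 and 4.11% of mt-Nd5, and 0 of mt-Nd1, mt-Nd6 and mt-Cytb. The sources give the read length as 50 or 150 bases. With 150-base windows the shares were 98.5% for mt-Nd3, 59.2% for mt-Nd4, 23.6% for mt-Co1 and 0% for mt-Nd2 and mt-Nd5, and unchanged for the other 8. The first 60 bases of 2 copied and 2 uncopied genes are given to show this, in lower case.
mt-Co2, MT:7013-7072: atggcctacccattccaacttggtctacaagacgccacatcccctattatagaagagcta
its copy, chr1:24615506-24615565 minus: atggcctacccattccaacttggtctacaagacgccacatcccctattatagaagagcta
mt-Co3, MT:8607-8666: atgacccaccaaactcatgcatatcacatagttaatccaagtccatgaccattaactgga
its copy, chr1:24613912-24613971 minus: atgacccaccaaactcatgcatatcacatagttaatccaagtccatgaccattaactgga
mt-Nd1, MT:2751-2810: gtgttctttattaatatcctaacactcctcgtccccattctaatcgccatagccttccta
mt-Cytb, MT:14145-14204: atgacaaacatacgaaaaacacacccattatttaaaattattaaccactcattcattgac
Only 1 row of the table overlaps the chromosome 1 copy, Gm10222, with 0 to 7 reads. How reads with several matching positions were treated is not given in the sources used here, and the part of such reads in the low values was not tested. The same holds for the copied stretches of mt-Co1 and mt-Nd4, so that their levels beside the uncopied mt-Nd1 and mt-Cytb are uncertain.

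**Figure D4:**
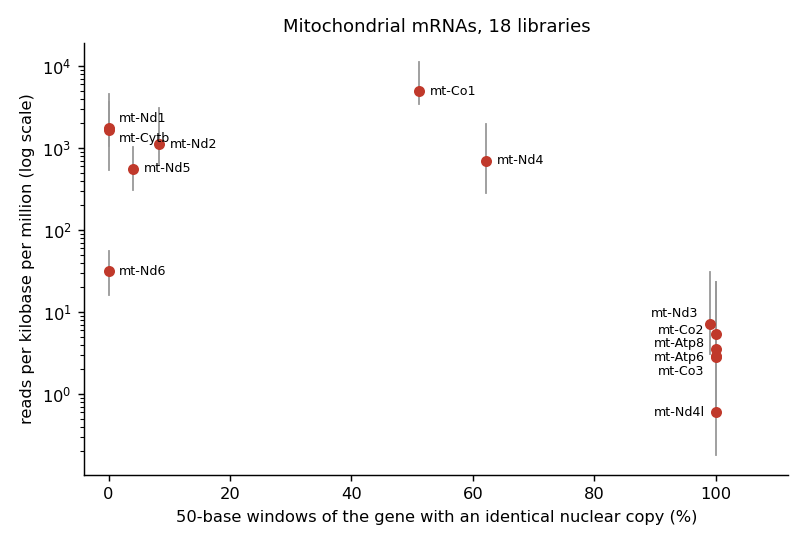
Median RPKM of each mitochondrial mRNA over the 18 libraries (vertical log axis) against the percent of its 50-base windows with an identical nuclear copy (horizontal axis). The 6 genes at 99.0% or more lie at 7.17 or below, and the 7 genes at 62.2% or less lie at 31.5 or above.

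The allelic columns separate reads of the BL6 mother from those of the CAST father. Mitochondrial mRNAs carried 98256 to 276132 BL6 reads and 12 to 74 CAST reads per library, or 0.0116% to 0.0352% CAST. All groups, TX 2i ESCs included, thus carried BL6 mitochondrial mRNA. In the nuclear genome 62 to 65 members per group had at least 20 allelic reads in every library, with a median maternal share of 50.8% to 52.6%. Maternal origin and BL6 strain cannot be told apart here.

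Some members left this balance in 1 group, at times together with other genes of their chromosome. Sdhb on chromosome 4, low in F KSR2 as described above, had 0.699%, 1.03% and 5.50% maternal reads there, against means of 36.3% to 54.5% in the other groups. On chromosome 6 in F KSR2, Ndufa4, Ndufa5 and Ndufb2 were 96.7%, 95.2% and 95.6% maternal, with means of 40.1% to 49.5% elsewhere, while the chromosome 6 members showed a median level difference of −0.10 from the other groups. The study reports maternal uniparental disomy of this chromosome in F KSR2. In M KSR3 all 6 members on chromosome 1 lay above the other groups, by a median of 0.69 beside 0.57 over 833 other genes of that chromosome. Of these, Ndufs1 was 64.8% maternal (44.8% to 50.5% elsewhere), Ndufa10 73.3% (58.5% to 59.8%) and Cox5b 79.4% (66.1% to 70.3%). In TX 2i ESCs the 3 chromosome 16 members (Ndufb4, Atp5j and Atp5o) lay above the other groups by a median of 0.44, beside 0.54 over 442 other genes, and Atp5o was 33.8% maternal against 50.5% to 52.5%. Members also moved in level with their chromosome elsewhere. The medians were −0.41 on chromosome 8 in F KSR2 (other genes −0.36) and 0.31 on chromosome 15 in M KSR5 (0.445). On chromosome 11 in M KSR3 the median was 0.34 (other genes 0.38). A lean kept in all 6 groups was seen for Cox5b, Cox7a2l (66.0% to 72.9%), Atp5e (66.3% to 75.7%) and Ndufa12 (71.6% to 84.1%). Cox7c leaned to the paternal side, at 34.0% to 39.3%.

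KSR-iPSCs and TX 2i ESCs differed in few nuclear members. Of 85, 5 were called higher in KSR-iPSCs and 3 lower, with 11% and 12% of all genes tested called in these directions, and the median was −0.01. The count higher fell to 2 without any 1 ESC library, where 6.88% to 7.79% of all genes were called higher. The count lower rose to 8 without F KSR4 replicate 3, fell to 0 without TX 2i ESCs replicate 3 and was 3 without F KSR4 replicate 2 and M KSR5 replicate 3. It fell to 1 without TX 2i ESCs replicate 1 or 2, MEF replicate 1 or 3, F KSR2 replicate 1, M KSR3 replicate 1, or M KSR5 replicate 1 or 2. Of the primitive endoderm markers, 6 of 7 were also higher in KSR-iPSCs (median 3.23), and their part in these calls was not tested. Cox8c differed most, with 5 to 31 reads in the 12 KSR-iPSC libraries and 1, 5 and 1 in TX 2i ESCs (log2 fold change 3.34, SE 0.53, adjusted p = 0.000251). At these counts the gap between the lowest KSR-iPSC library (−1.84) and the highest ESC library (−1.90) was narrow. Cox8c was above 0 in KSR-iPSC libraries only, so that it was tested through the side where it was high. Its p-value is given as a description. Cox5b, the zinc-binding subunit of complex IV, read 6.22, 6.29 and 6.43 in TX 2i ESCs, 7.03, 7.32 and 7.54 in M KSR3 and 6.45 to 7.75 in the other lines (0.61, adjusted p = 0.0208). That call was lost when any 1 ESC library was left out (adjusted p of 0.0504 to 0.0978). Ndufa10, an accessory subunit of complex I, read 6.60, 6.49 and 6.50 in TX 2i ESCs, 7.37, 7.60 and 7.63 in M KSR3 and 6.63 to 7.10 elsewhere (0.49, adjusted p = 0.00488). Ndufb3, a complex I subunit named after its value was seen, gave 0.55 (adjusted p = 0.0448) and Atp5sl 0.58 (adjusted p = 0.0228).

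Cox5b, Ndufa10 and Ndufb3 all lie on chromosome 1, whose genes were high in M KSR3. In the other 3 KSR-iPSC lines Cox5b (from 6.45) and Ndufa10 (from 6.63) lay just above the highest ESC values of 6.43 and 6.60, whereas Ndufb3 overlapped, at 4.58 in 2 F KSR4 libraries against 4.48, 4.73 and 4.60 in TX 2i ESCs. The genes lower in KSR-iPSCs, named because there were 3, were Ndufb4 (−0.83, adjusted p = 0.0106), Atp5o (−0.43, adjusted p = 0.0436) and Cox5a (−0.40, adjusted p = 0.0440), of which Ndufb4 and Atp5o lie on chromosome 16, whose genes were high in TX 2i ESCs. Without TX 2i ESCs replicate 3 none of the 3 was called (adjusted p of 0.0919, 0.150 and 0.204), and without replicate 1 or 2 Ndufb4 alone was. The part of these chromosomes in the calls was not tested. The further genes called lower without F KSR4 replicate 3 were Atp5j, also on chromosome 16, and Ndufc2, Ndufs7, Ndufv2 and Uqcrc2, with log2 fold changes of −0.38 to −0.51.

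All 12 tested mitochondrial mRNAs were above 0 in KSR-iPSCs against TX 2i ESCs, with a median of 0.52. Of all 14632 genes tested, 7259 were above 0. Of the 12, 1 was called higher, where 11% of all genes were. The values of mt-Co2, mt-Atp8, mt-Atp6, mt-Co3 and mt-Nd3 rest on few reads. mt-Nd4, a core complex I subunit, measured 9.63, 8.62 and 9.45 for TX 2i ESCs, 9.88, 9.56 and 9.31 for F KSR2, 10.08, 9.79 and 11.41 for F KSR4, 10.04, 10.26 and 10.47 for M KSR3 and 9.80, 10.31 and 9.97 for M KSR5. F KSR2 overlapped the ESCs and the other lines lay above them (log2 fold change 0.84, SE 0.27, adjusted p = 0.0334). Without TX 2i ESCs replicate 2, the lowest library, the value was 0.53 (adjusted p = 0.272), and the call was also lost without TX 2i ESCs replicate 3, M KSR3 replicate 3 or M KSR5 replicate 2 (adjusted p of 0.0510 to 0.0650). mt-Cytb gave 0.80 (adjusted p = 0.0563).

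Female and male KSR-iPSC lines differed in 1 of the 85 nuclear members, Cox7b2, called higher in female lines, and in 0 mitochondrial mRNAs, with 1.59% of all 13609 genes tested called higher and 1.28% lower. At an unadjusted p under 0.05, both limma and limma-voom gave 2 nuclear members higher and 8 lower, and 0 mitochondrial mRNAs. The share of all genes at that unadjusted limit was not counted. The median difference, female minus male, was −0.11 over all genes and −0.05 over the nuclear members. Cox7b2 had 20 to 67 reads in the 6 female libraries and 5 to 24 in the 6 male ones, with an overlap of the groups (log2 fold change 1.96, SE 0.46, adjusted p = 0.0305). Its log2 value was above 0 in all 6 female libraries and, of the male ones, in M KSR5 replicate 1 only. Cox7b2 thus passed the filter for testing through the female side, and its p-value is given as a description. The call was lost when the line was taken as a block (adjusted p = 0.0928) and when most single libraries were left out, and each sex had 2 lines. Without F KSR4 replicate 3, Cox7b2 was not called (adjusted p = 0.0556) and Atp5sl was called lower in female lines (−0.65, adjusted p = 0.0139). Cox6b2 gave 1.41 (adjusted p = 0.0976) and was called without M KSR5 replicate 3 (1.72, adjusted p = 0.0287) or F KSR4 replicate 1 (1.67, adjusted p = 0.0477). Of the 3 subunit genes on the X chromosome, outside the 101 genes, all were higher in the female lines, Ndufa1 by 0.82 (adjusted p = 0.0463), Ndufb11 by 0.94 (adjusted p = 0.0221) and Cox7b by 0.88 (adjusted p = 0.0194).

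The nuclear members scattered more between F KSR4 replicates than in any other group. Their median SD over 3 replicates was 0.548 in F KSR4 and 0.175 to 0.237 in the other 5 groups. Other genes of like level gave 0.465 in F KSR4 and 0.136 to 0.220 elsewhere, so that the scatter was not confined to the members. The 6 heavily read mitochondrial mRNAs had a median SD of 0.805 in F KSR4, then 0.485 in TX 2i ESCs and 0.209 to 0.268 in the rest. Replicate 3 was the highest of its group for 75 of 85 nuclear members, by a median of 0.55 from the group mean, and without it the median SD was 0.191.

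Cox6b1 shows the pattern, with 6.40, 6.54 and 8.01 in the 3 F KSR4 libraries. The 5 nuclear members with the largest SD there were Ndufa4l2 (0.63, 3.13 and 4.15), Cox6b2, Ndufc2 (5.43, 6.10 and 7.51), Cox4nb (7.59, 5.61 and 7.18) and Ndufv3 (4.99, 4.68 and 6.58). Ndufc2 and Ndufv3, both complex I subunits, peaked in replicate 3. Cox4nb, a row caught by its name only, was instead lowest in replicate 2, and so were Ndufs1 (7.13, 6.12 and 6.98) and Atp5g3 (8.66, 7.56 and 9.09).

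In replicate 3, shorter transcripts deviated more. Across 81 nuclear members with a mean log2 value above 2, the deviation of replicate 3 from its group mean had a Spearman rho of −0.40 with merged exon length, beside −0.39 over 10044 other genes, with the points sharing 1 library and genes not being independent replicates. The 15 members shorter than 1000 bases stood 0.64 above the group mean and the 37 of 2000 bases or more 0.42, where short other genes stood 0.30 above and long ones 0.01. The members are short, with a median of 1778 bases against 4265 over all genes tested, yet the long members also exceeded other long genes. The part of length in the result was not tested. Replicate 1 had a rho of 0.34 and replicate 2 of 0.04 over the members. M KSR3 replicate 3 had nearly the same relation, −0.37 over the members and −0.36 over other genes, with a median member deviation of 0.14. The rho of the members lay between −0.26 and 0.27 in the remaining 14 libraries. Over other genes, MEF replicate 3 gave −0.36, while MEF replicate 2 gave 0.36, M KSR3 replicate 1 0.35 and M KSR5 replicate 1 0.30. All further libraries lay between −0.23 and 0.22 for other genes. A relation of this size over other genes was thus not confined to F KSR4 replicate 3 and M KSR3 replicate 3.

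**Figure D5:**
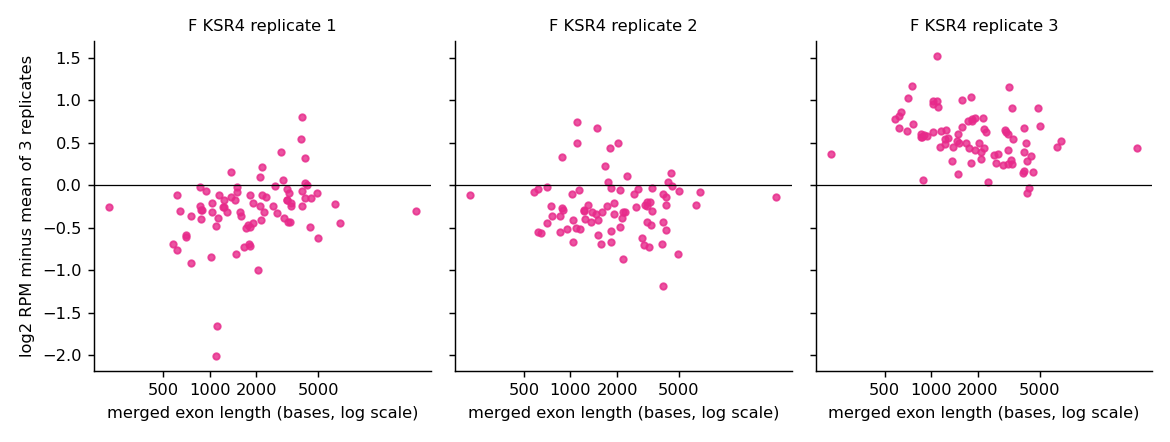
Deviation of each nuclear member's log2 RPM from the mean of the 3 F KSR4 replicates (vertical axis) against merged exon length in bases (horizontal log axis), 1 panel per replicate. In replicate 3 nearly all points lie above 0 and shorter members tend to lie higher, and in replicates 1 and 2 most lie below 0.

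Genes that serve the chain without belonging to it were set beside the members, from lists drawn up by function. Of all genes, 42.1% were called higher against MEFs and 32.5% lower. Those tested numbered 12 of 14 listed for RNA processing, 9 of 16 for mitochondrial DNA and 24 of 36 assembly factors. Of 77 mitochondrial ribosomal protein genes, 56 were higher in the pluripotent groups than in MEFs and 2 lower, with a median of 0.76. Of 12 genes for mitochondrial RNA processing, 10 were higher, among them Lrpprc (0.99), which stabilises mitochondrial mRNAs, Elac2 (1.47), which trims tRNA ends, and Tbrg4 (1.50), and Fastk was lower (−0.72). Of 9 genes listed for copying or transcribing mitochondrial DNA, 6 were higher. They included Tfam (1.60), the packaging factor of that DNA, the RNA polymerase Polrmt (0.65) and Tfb1m (1.77), a methyltransferase of mitochondrial ribosomal RNA. The transcription factor Tfb2m was lower (−0.54). Of 24 assembly factors 10 were higher, a share near that of all genes, such as the copper carriers Cox17 (1.74) and Sco1 (1.57) and the iron-sulfur factor Nubpl (1.65), and 4 lower, Ttc19 (−0.96), Tmem70 (−0.89), Sco2 (−0.65) and Sdhaf2 (−0.61). Of 6 tested regulators 5 were higher, Ppargc1b (2.89), Pprc1 (1.23), Nrf1 (0.94), Gabpa (0.82) and Esrrb, which is also a pluripotency marker, while Esrra gave −0.02.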

How the data were processed

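RNA was sequenced from 3 replicates of each of 6 groups, and samples were grouped by their titles. Per the study's methods, the authors trimmed reads with Trim Galore 0.6.1, aligned them with HISAT2 2.1.0 to GRCm38 and quantified mRNA by strand in SeqMonk. The sources differ on read length and pairing, and the treatment of reads with several matches is not given in the sources used here. The deposited values are log2 RPM per gene, with 0 reads held at 0.9 read, in 4 columns per library (all, BL6, CAST and unassigned reads). Gene reads were 82.5% to 92.3% of the total behind the RPM. The step between low values gave back the reads, of which 99.97% to 100% were whole within 0.05. Mitochondrial and promoter sequences came from GRCm38 and RefSeq (GRCm38.p6).

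The members and all gene lists were chosen with earlier results of these data known. Genes above 0 on the log2 scale in 3 or more libraries were tested with limma 3.58.1 (R 4.3.3, trend, Benjamini-Hochberg, two-sided) on all 18 libraries, or on the 12 KSR-iPSC libraries for sex. The named genes were the mitochondrial mRNAs, the paralog sets, complex II, the 5 largest increases and decreases per comparison among called genes whose libraries did not overlap, and the 5 largest SDs in F KSR4. Nuclear copies were found with blastn 2.17.0 and exact 50- and 150-base windows. The limma steps were tested on simulated data. Correlations of same-numbered libraries were −0.20 to 0.38 with a median of 0.04. Those of other numbers were −0.43 to 0.34 with a median of −0.01. The main fit did not pair the libraries by number. Replicate 1 held the lowest value for 65 (F KSR2), 78 (M KSR3), 58 (M KSR5) and 71 (TX 2i ESCs) of 85 nuclear members. In F KSR4 it did so for 38 and in MEFs for 6. No libraries of a group differed by less than the sampling noise. Alternatives were log2(RPM + 1), no filter, 2 other scalings, limma-voom, a replicate block, a line block, leaving out libraries and a 2-fold limit.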

Additional observations from a re-analysis of the deposited data

Results flagged for a closer look

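Among 41 named genes and the mitochondrial share, compared within the female and within the male KSR-iPSC libraries (6 each, 84 sets in all), 9 values lay far from the other 5. Chance flags about 1 in 20 such sets. Of these values, 6 belonged to F KSR4 replicate 3 and were high. Cox6b1 read 8.01 there against 6.22 to 6.54 in the other female libraries, Cox5b 7.75 against 6.45 to 6.74, Sdhd 7.44 against 6.60 to 6.90 and Atp5sl 5.67 against 4.65 to 4.89. In the same library the complex I mRNA mt-Nd2 read 11.64 against 9.97 to 10.49, and mt-Nd4 11.41 against 9.31 to 10.08.

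In M KSR3 replicate 2, Ndufa4l2 read −2.70 against 2.03 to 3.13 in the other male libraries. mt-Nd6, a complex I mRNA, read 4.86 in M KSR5 replicate 1 against 3.94 to 4.09. In F KSR2 replicate 1, mt-Nd4l read −4.16, the value of a single read, against −2.30 to −1.41.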

How the results depend on the processing

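No called value of a named gene changed sign under an alternative, while 84 values of genes that were not called did, out of 2315 in all. Medians near 0 also changed sign. The nuclear median for KSR-iPSCs against TX 2i ESCs (−0.01) ran from −0.10 to 0.03 (0.01 with median-of-ratios scaling). Between the sexes the nuclear median (−0.05) ran from −0.20 to 0.05 and the mitochondrial one (−0.07) from −0.23 to 0.06. Both medians against MEFs and the mitochondrial one against TX 2i ESCs stayed above 0. Against MEFs, the nuclear members called higher numbered 45 to 63 under the other scalings, filters, tests and the replicate block. Of all genes, 31.7% (no filter) to 42.6% (replicate block) were called higher there. With a 2-fold limit 16 nuclear members were higher and 0 lower, and 0 mitochondrial mRNAs were higher. No filter and median-of-ratios scaling each left 0 mitochondrial mRNAs higher, and the latter called 1 lower. For KSR-iPSCs against TX 2i ESCs, 2 mitochondrial mRNAs were called with log2(RPM + 1), median-of-ratios scaling, limma-voom, the replicate block, or without F KSR4 replicate 2 and M KSR5 replicate 3, and 0 with no filter, which also left 1 nuclear gene lower. Between the sexes, no filter and the line block left 0 nuclear genes higher. Except where stated, the cause of these changes was not tested.

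Leaving out 1 library at a time gave these ranges. Against MEFs, 42 to 63 nuclear genes were higher and 0 to 1 lower, and 0 to 1 mitochondrial mRNAs were higher and 0 to 1 lower. Of all genes, 40.1% to 44% were called higher in these fits. Against TX 2i ESCs, 2 to 7 nuclear genes were higher (2 without any 1 ESC library), 0 to 8 lower (0 without TX 2i ESCs replicate 3), and 0 to 3 mitochondrial mRNAs higher. Between the sexes, 0 to 2 nuclear genes were higher and 0 to 1 lower. The median SD in F KSR4 was 0.191 to 0.594. The mitochondrial share was 1.37% to 1.58% for MEFs, 1.26% to 1.42% for TX 2i ESCs, 1.33% to 1.50% for F KSR2, 1.80% to 2.02% for M KSR3, 1.77% to 1.95% for M KSR5 and 2.36% to 3.13% for F KSR4.

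With the replicate number as a block, 63 nuclear genes were higher against MEFs. By correlation, 9 of 18 libraries were closest to a library of their own number. Of all female-against-male calls, 55.4% were higher, and 72.1% with median-of-ratios scaling, where the median of all genes moved from −0.11 to −0.01. Genes with few reads, such as mt-Nd4l at a median of 3, are limited by depth.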
